A study of Homo sapiens with 8 samples.

Results

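The genes of the AP-1 transcription factors were examined in ATAC-seq peak lists of U2OS cells, a human osteosarcoma line. The 9 genes were FOS, FOSB, FOSL1 and FOSL2 of the FOS family, JUN, JUNB and JUND of the JUN family, and ATF3 and BATF3 of 2 related families. A region, that is a distinct interval of a library's peak list, was taken when it overlapped the span of one of these genes extended by 20 kb on each side (GENCODE release 44, build hg38). Over the 8 libraries 695 of 1440417 regions met this rule, and they merged into 143 of 548046 union sites. The genes were 9 of 19970 protein-coding genes on chromosomes 1 to 22 and X.

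AP-1 is a dimer of basic leucine zipper (bZIP) proteins that binds the TPA response element (TRE) or the related cAMP response element (CRE). FOS and several relatives are immediate-early genes, silent or low at rest and transcribed within minutes of a growth or stress signal, and UV light is a classical inducer through the JNK and p38 kinases that phosphorylate JUN and ATF2. In ATAC-seq the transposase Tn5 cuts open DNA, so a peak marks an accessible promoter or enhancer and not the amount of transcript.

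Accessibility was measured in WT cells and in ASH1L-/- cells, which lack the histone methyltransferase ASH1L after CRISPR/Cas9 editing. Both were either unchallenged or were irradiated with UV-C at 20 J/m2 and processed 3 h later, giving 4 groups of 2 libraries labelled as biological replicates. The knockout line had been expanded from individual colonies, so genotype and clonal history cannot be told apart. All cells, irradiated or not, were exposed to DNase before the nuclei were isolated, which digests the DNA of dead cells.

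Each library was summarised by the percentile of a region, the share of the regions of the same list with an equal or lower fold enrichment over local background. It ranks a region within its library and is not an absolute amount of open chromatin. The lists held between 158198 and 220783 regions. The mean pileup of reads over the genome, a relative measure of depth, was 2.45 to 2.81 in the UV libraries. In the unchallenged libraries it was 1.39 to 2.10, apart from 5.87 in replicate 1 of the ASH1L-/- cells. Regions were wider after UV, with medians of 356 to 444 bp against 242 to 291 bp, and the median fold enrichment of a list was 3.47 to 5.06 after UV against 2.57 to 3.71 before. Replicate 2 of the irradiated WT cells stood apart, with the widest regions and with 94.2% of them at a q-value below 0.05, against 77.4% to 88.5% in the other 7 libraries. The median percentile of the 9 AP-1 promoters was 63.0 in that library and 75 to 85.8 in the others. The promoter of ASH1L was at percentiles of 81.1 to 97.6 in the 8 lists, and since an open promoter says nothing of the edited sequence, it does not check the knockout. Of 8 bone mesenchyme markers, 6 had a promoter region in all 8 lists, COL1A2 in 7 and TWIST1 in 2. Of 7 markers of other cell types, EPCAM, CDH1 and GFAP also had one in all 8, PTPRC and ALB in 1 library each, and CD3E and MYH6 in none.

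The promoters of the founding members are shown first, because the data rank them far apart. Each line gives the 250 bases before the transcription start site (TSS) in the direction of transcription, from RefSeq on GRCh38.p14, with matches to 5 motifs in capitals. The motifs, searched on both strands of 300 bases from 250 before to 50 after the start, were TRE as TGAGTCA, CRE as TGACGTCA, the CCAAT box as CCAAT, the TATA box as TATAAA, and the CArG box, the core of the serum response element. A match is a stretch of letters and not a measured binding site.
FOS, chr14:75278578-75278827, plus strand: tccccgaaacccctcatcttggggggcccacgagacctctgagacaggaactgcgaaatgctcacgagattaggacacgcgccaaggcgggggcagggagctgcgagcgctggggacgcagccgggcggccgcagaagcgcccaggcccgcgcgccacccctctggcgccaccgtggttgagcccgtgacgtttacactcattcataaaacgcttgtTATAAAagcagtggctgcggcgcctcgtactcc
JUN, chr1:58784048-58784297, minus strand: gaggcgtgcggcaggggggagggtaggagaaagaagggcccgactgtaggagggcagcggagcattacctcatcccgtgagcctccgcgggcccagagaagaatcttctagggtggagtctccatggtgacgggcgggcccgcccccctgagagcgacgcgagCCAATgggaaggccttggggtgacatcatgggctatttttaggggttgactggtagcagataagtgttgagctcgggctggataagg
JUNB, chr19:12791236-12791485, plus strand: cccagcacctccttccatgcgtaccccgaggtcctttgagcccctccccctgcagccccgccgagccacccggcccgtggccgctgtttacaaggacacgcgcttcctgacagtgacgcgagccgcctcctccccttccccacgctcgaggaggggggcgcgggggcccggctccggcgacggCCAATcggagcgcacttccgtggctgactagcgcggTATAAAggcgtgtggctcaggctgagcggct
JUND, chr19:18281623-18281872, minus strand: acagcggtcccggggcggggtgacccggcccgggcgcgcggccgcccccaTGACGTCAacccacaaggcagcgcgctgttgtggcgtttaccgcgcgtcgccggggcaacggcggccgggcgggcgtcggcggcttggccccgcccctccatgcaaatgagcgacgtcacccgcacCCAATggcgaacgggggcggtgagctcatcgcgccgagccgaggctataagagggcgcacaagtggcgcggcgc

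In FOS the TATA box began 33 bases before the start, at position -33, and in JUNB and FOSB such a box began at positions -31 and -30. JUNB had a CCAAT box at position -67, JUN at -87 and JUND at -74, and JUND also had a CRE at position -200. The promoter table used here gave 8 sequences for the listed genes, 2 of them for ATF3, and those of FOSL1 and BATF3 were not analysed. Of these sequences 4 held a TATA box, as did 11.5% of 35116 RefSeq promoters, and 4 held a CCAAT box, as did 34.6%. A TRE stood in 1 of the 8, at position 5 of FOSL2, against 4.95% of all promoters, and a CRE in 1 against 1.85%. None of the 8 windows held a CArG box, which 1.29% of all promoters had, though 1 lay 134 bases before the summit of the region at the FOSB start. The promoter search ended 250 bases before the start, so it could not find a box farther upstream, in FOS or another gene.

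Away from the promoters, several flanking sites ranked higher than the promoter they lie next to. Below are 200 bases around the summit, plus strand of hg38. They are given for the sites outside promoters that ranked highest in the FOS and ATF3 windows and for a FOSL1 site with 2 TRE matches. Also given are the ATF3 site that passed the test for UV with all 8 libraries, though its UV and unchallenged values overlapped, and 2 sites found only after UV. A FOSB site held 2 TRE matches as well and is not shown. Capitals mark TRE, CRE or CArG box letters, and a TRE on the minus strand reads TGACTCA. Where no letters are in capitals, none of these motifs lies in the stretch shown; at -47062 bp of ATF3 a TRE lies just outside it, 114 bases before the summit.
FOS -19683 bp, chr14:75259046-75259245: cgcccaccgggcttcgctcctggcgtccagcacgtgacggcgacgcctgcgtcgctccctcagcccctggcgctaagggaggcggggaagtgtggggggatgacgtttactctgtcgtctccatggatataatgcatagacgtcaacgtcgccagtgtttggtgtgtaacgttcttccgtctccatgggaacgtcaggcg
FOS +15244 bp, chr14:75293973-75294172: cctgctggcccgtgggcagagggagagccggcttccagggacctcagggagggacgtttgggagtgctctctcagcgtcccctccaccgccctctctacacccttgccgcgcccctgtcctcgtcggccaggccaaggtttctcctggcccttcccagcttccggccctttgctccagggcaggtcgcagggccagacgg
ATF3 -12335 bp, chr1:212596327-212596526: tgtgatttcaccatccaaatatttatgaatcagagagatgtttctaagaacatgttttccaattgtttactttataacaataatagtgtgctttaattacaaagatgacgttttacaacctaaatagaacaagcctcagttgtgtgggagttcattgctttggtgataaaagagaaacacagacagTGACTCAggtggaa
ATF3 -47062 bp, chr1:212561600-212561799: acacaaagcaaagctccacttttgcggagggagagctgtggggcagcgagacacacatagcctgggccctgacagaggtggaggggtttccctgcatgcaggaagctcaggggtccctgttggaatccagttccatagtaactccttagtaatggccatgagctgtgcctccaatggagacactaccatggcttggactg
FOSL1 -15539 bp, chr11:65915828-65916027: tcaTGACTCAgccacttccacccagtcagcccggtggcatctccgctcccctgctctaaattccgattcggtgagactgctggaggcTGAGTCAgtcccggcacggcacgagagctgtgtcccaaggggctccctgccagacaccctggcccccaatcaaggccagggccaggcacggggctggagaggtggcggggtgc
JUND -13131 bp, chr19:18294654-18294853: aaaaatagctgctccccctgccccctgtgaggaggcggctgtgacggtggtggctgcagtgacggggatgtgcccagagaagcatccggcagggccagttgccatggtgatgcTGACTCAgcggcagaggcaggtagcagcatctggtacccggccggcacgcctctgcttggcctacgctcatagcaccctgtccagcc
FOSB +16601 bp, chr19:45484498-45484697: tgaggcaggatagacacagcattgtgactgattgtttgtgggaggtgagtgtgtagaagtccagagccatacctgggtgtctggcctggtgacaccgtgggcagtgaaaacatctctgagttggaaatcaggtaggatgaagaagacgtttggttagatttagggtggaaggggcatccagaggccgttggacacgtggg

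All 9 genes had a promoter region in each of the 8 lists, a promoter being the sequence within 1 kb of any annotated TSS of a protein-coding gene. Their rank differed widely. ATF3 and JUN were near the top of the lists, BATF3, FOSL2 and JUND in the upper part of the lists in most libraries, and FOS, FOSB, FOSL1 and JUNB lower.

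FOS (ENSG00000170345.10, chr14:75278826-75282230, plus strand) encodes the partner that cannot form a homodimer and needs a JUN protein to bind DNA. Its promoter lay at percentiles of 75.5 and 69.7 in unchallenged WT cells, 70.7 and 52.5 in irradiated WT cells, 80.8 and 72.5 in ASH1L-/- cells without UV, and 73.2 and 77.0 in irradiated ASH1L-/- cells. The UV and unchallenged libraries overlapped, and the lowest value came from the library that stood apart. UV minus unchallenged was -6.28 ± 5.19 percentile points (SE, limma over 13492 promoters, adjusted p = 0.431, n = 4 and 4), and -1.73 ± 4.62 without that library.

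FOSB (ENSG00000125740.15, chr19:45467995-45475179, plus strand), which is induced with FOS and also gives rise to a long-lived truncated protein, ranked at 81.9 and 74.3 in unchallenged WT cells and at 68.8 and 56.0 post UV. In ASH1L-/- cells the values were 85.2 and 81.0 without UV and 66.1 and 68.1 post UV. All 4 UV libraries were below all 4 unchallenged ones, with a difference of -15.9 ± 4.53 (SE, limma, adjusted p = 0.0988). The region ranked here was an intronic one at +1704 bp that reaches an alternative start, while the region at the canonical TSS ranked lower, from 34.8 to 79.5.

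FOSL1 (ENSG00000175592.9, chr11:65892049-65900573, minus strand), whose product FRA-1 is a target of AP-1 itself, ranked at 75.7 and 71.7 in unchallenged and 69.9 and 49.7 in irradiated WT cells. The corresponding values in ASH1L-/- cells were 79.4 and 72.8 without and 59.2 and 69.1 with UV. The 4 values after UV were again the 4 lowest, and the difference was -12.9 ± 5.73 (SE, limma, adjusted p = 0.174). Without the library that stood apart it was -7.89 ± 5.20 (adjusted p = 0.391).

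FOSL2 (ENSG00000075426.12, chr2:28392448-28417317, plus strand), coding for FRA-2, ranked highest in the family, at 90.2 and 87.6 in unchallenged WT cells and 90.9 and 92.3 in unchallenged ASH1L-/- cells. Post UV it was at 84.5 and 63.0 in WT and at 75 and 81.4 in ASH1L-/- cells, all below the unchallenged values. The difference was -14.2 ± 4.66 (SE, limma, adjusted p = 0.113), and it was -8.85 ± 2.94 (adjusted p = 0.125) without the library that stood apart.

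JUN (ENSG00000177606.9, chr1:58776845-58784048, minus strand), the strongest transactivator of the family and a target of JNK, had a promoter region near the top of the lists. Its region ranked at 98.3 and 98.2 in unchallenged WT, 97.7 and 91.0 in irradiated WT, 99.1 and 97.9 in unchallenged ASH1L-/- and 98 and 98.8 in irradiated ASH1L-/- cells. Apart from the 91.0 these values lay within 2 points, and the UV difference was -1.98 ± 1.25 (SE, limma, adjusted p = 0.306). It was -0.293 ± 0.434 without the library at 91.0, the one that stood apart.

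JUNB (ENSG00000171223.6, chr19:12791486-12793315, plus strand), a weaker activator that can restrain JUN, showed the largest UV difference of the 9. The percentiles were 71.3 and 77.8 in unchallenged WT cells, 59.5 and 49.4 in irradiated WT cells, 82.3 and 82.1 in ASH1L-/- cells without UV, and 62.3 and 63.3 in irradiated ASH1L-/- cells. No UV library reached the lowest unchallenged one. The difference was -19.8 ± 4.65 (SE, limma, adjusted p = 0.0825), and -17.3 ± 4.72 (adjusted p = 0.0844) without the library that stood apart.

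In JUNB 2 regions took part. One lay on the TSS and the other at -1280 bp, and the stronger of them was counted. The region on the TSS ranked from 64.8 to 82.3 without UV and from 33.3 to 63.3 post UV, and the upstream one from 62.5 to 77.8 and from 21.8 to 62.3. Both sets of UV values were below the unchallenged values of the same region.

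JUND (ENSG00000130522.6, chr19:18279694-18281622, minus strand), the JUN gene that is expressed at rest, ranked at 86.3 and 78.1 in unchallenged WT, 77.9 and 70.4 in irradiated WT, 80.9 and 79.1 in unchallenged ASH1L-/- and 83.7 and 77.7 in irradiated ASH1L-/- cells. The groups overlapped, with a UV difference of -3.67 ± 3.77 (SE, limma, adjusted p = 0.532) that ran from -5.73 to -1.61 when 1 library was left out.

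ATF3 (ENSG00000162772.18, chr1:212565334-212620777, plus strand), a stress-induced bZIP gene that can repress its own family, was with JUN near the top of the lists. Its promoter region lay at 99.4 and 99.4 in unchallenged WT cells, 99.3 and 87.2 in irradiated WT cells, 99.2 and 98.5 in ASH1L-/- cells without UV, and 94.7 and 96.9 in irradiated ASH1L-/- cells. A single UV library, replicate 1 of irradiated WT cells, overlapped the unchallenged ones. The difference was -4.57 ± 2.10 (SE, limma, adjusted p = 0.186), and -1.54 ± 0.591 (adjusted p = 0.164) without the library that stood apart.

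BATF3 (ENSG00000123685.9, chr1:212686417-212699840, minus strand), known for its role in dendritic cells, had an accessible intronic promoter region in U2OS cells. It ranked at 85.8 and 88.2 in unchallenged and 90.8 and 75.9 in irradiated WT cells, and at 88.3 and 87.6 without and 82.2 and 90.4 with UV in ASH1L-/- cells. The UV libraries spread around the unchallenged ones, and the difference was -2.67 ± 3.81 (SE, limma, adjusted p = 0.660), turning to 1.05 ± 2.90 without the library that stood apart.

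**Figure D1:**
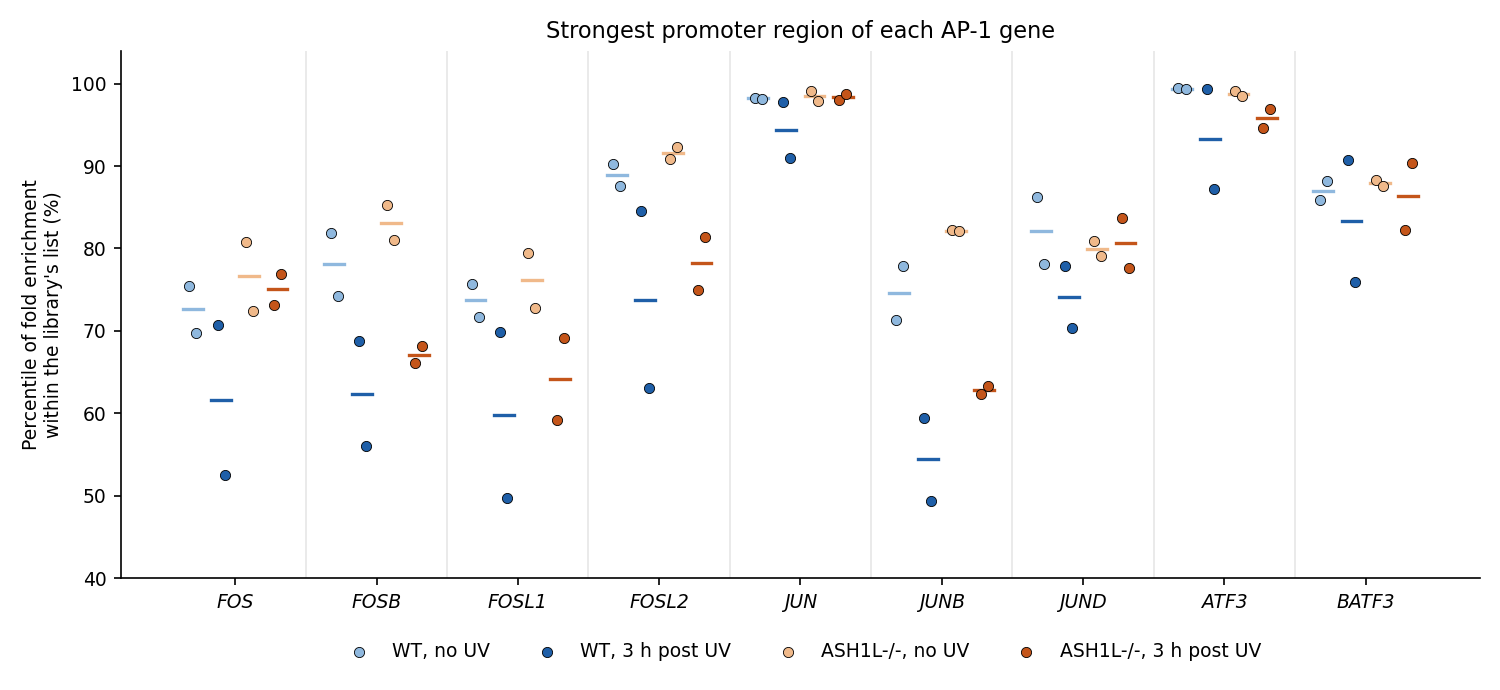
Percentile of the strongest promoter region of each AP-1 gene (y axis, percent, not starting at 0) in each library. Points are libraries and short lines are means of 2; the JUN promoter lay at 91.0 or above in all 8 libraries, and the 4 UV points of JUNB, FOSB, FOSL2 and FOSL1 lie under their 4 unchallenged points.

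Read over the list, 0 of 9 promoters passed an adjusted p of 0.05 for UV, as did 0 of all 13492 promoters (0%). At an unadjusted p of 0.05 or below there were 4 of 9 members and 3846 of 13492 promoters (28.5%). The exact permutation test could hardly have called any, since its smallest adjusted p over all promoters was 0.131. The count depended on 1 library: without replicate 1 of the irradiated WT cells, 6 of 9 were called lower (ATF3, FOSB, FOSL1, FOSL2, JUN and JUNB), as were 4066 of 13492 promoters (30.1%), and without replicate 2 of that group 0 of 9 were called, beside 2.48% of all promoters called lower. All 9 differences were negative, with a median of -6.28, while the median over all promoters was -2.58 and 77.6% of them were negative. Without the library that stood apart, replicate 2 of irradiated WT cells, 8 of 9 were negative with a median of -1.79, against a median of -1.71 over all promoters. In 4 of 9 genes (FOSB, FOSL1, FOSL2 and JUNB) all UV libraries lay below all unchallenged ones, a pattern shown by 20.1% of all promoters, and in 0 of 9 above, against 1.66%. The JUNB difference stood at percentile 1.3 of all promoter differences, FOSB at 2.71, FOSL2 at 3.91 and FOSL1 at 5.26, whereas JUN stood at 56.0 and BATF3 at 49.2.

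The sign was not fixed for all 9. Ranked among promoter regions only, where the median over all promoters was 0.33, the differences of FOS, JUND and BATF3 became positive at 1.31, 3.01 and 3.89. With fold enrichment centred on each library's median, those of JUND and BATF3 were positive at 0.04 and 0.05 on the log2 scale. Fold enrichment and percentile could move apart. For FOS the fold enrichment was 4.99 and 4.87 in unchallenged WT, 5.72 and 5.39 in irradiated WT, 4.4 and 5.32 in unchallenged ASH1L-/- and 6.76 and 6.73 in irradiated ASH1L-/- cells, so that every UV value was above every unchallenged one. The rise in the median fold enrichment of the lists moved with UV alongside it, and its part in the percentile differences was not tested.

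**Figure D2:**
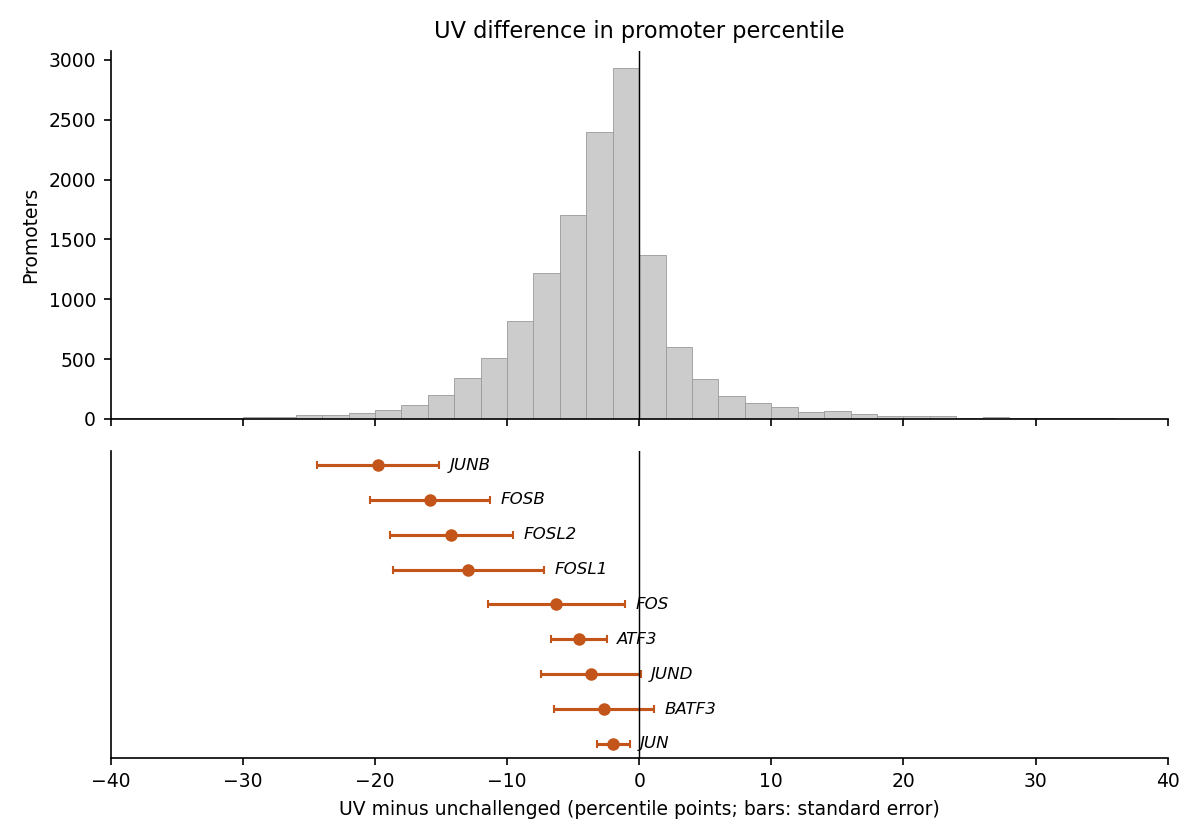
UV minus unchallenged difference in promoter percentile. The upper panel counts promoters in bins of 2 points (11 of 13492 lie outside the axis), and the lower panel gives the 9 AP-1 genes with their standard errors, from -19.8 for JUNB to -1.98 for JUN.

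The second question of the design was whether loss of ASH1L altered these promoters. Knockout minus WT in percentile was positive at all 9 (median 3.40), as at 69.6% of all promoters (median 0.957), although ATF3, JUND and BATF3 turned negative with centred fold enrichment and ATF3 also when ranked among promoter regions. The differences ran from 0.96 at ATF3 to 8.74 ± 5.19 at FOS and 7.98 ± 4.65 at JUNB (SE, limma, adjusted p of 0.801 for both). None of the 9 passed the threshold, 0 of 9 had an unadjusted p of 0.05 or below, beside 6.06% of all promoters, and 1 of 13492 promoters was called (0.00741%). No AP-1 promoter had all 4 ASH1L-/- libraries above all 4 WT libraries, which 1.86% of promoters did. Without the library that stood apart, the differences of ATF3, FOSL1, FOSL2 and BATF3 were negative, from -2.07 to -1.65, that of FOS was 4.19 ± 4.62, and the median of the 9 was 0.291. The change after UV did not differ detectably between genotypes, with 0 of 9 members and 0 of 13492 promoters (0%) called, adjusted p-values of 0.9999 and an interaction of at most 9.44 ± 10.4 points, at FOS, which was 0.348 ± 9.23 without the library that stood apart. Without replicate 1 of the irradiated WT cells, ATF3 and JUN were called for genotype, at 3.98 ± 0.702 and 3.85 ± 0.488 (SE, limma, adjusted p of 0.0199 and 0.00801), and for the interaction (adjusted p of 0.0174 and 0.0143). In the same fits 7.61% of all promoters were called higher for genotype and 4.22% for the interaction.

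The 5 genes whose promoter percentiles over the 8 libraries most resembled the mean profile of the AP-1 promoters were CKS1B and SHC1 (Pearson r of 0.990 each), SFXN2 and ARL3 (0.988 each) and TMEM87B (0.987), among 13483 genes compared. The correlation describes the 8 libraries, which share their depth and width differences across genes.

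Sites outside the promoters made up most of the AP-1 windows. Of the 143 sites, 20 overlapped a promoter of a listed gene, 22 a promoter of a neighbouring protein-coding gene, 21 lay elsewhere in a listed gene and 80 in the flanks. Starts of lncRNA genes did not count as promoters, so a site outside promoters may lie at one. A region was found in all 8 lists at 45 sites (31.5%), compared with 12% of sites in the windows of all protein-coding genes, and in a single library at 45 sites (31.5%), compared with 60.2%. FOSL2 had the most sites, 31, of which 18 were in 1 library only. ATF3 had the most sites in all 8 lists, 8 of 19, and JUN the fewest, 2 of 12, both of them at its promoter.

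**Figure D3:**
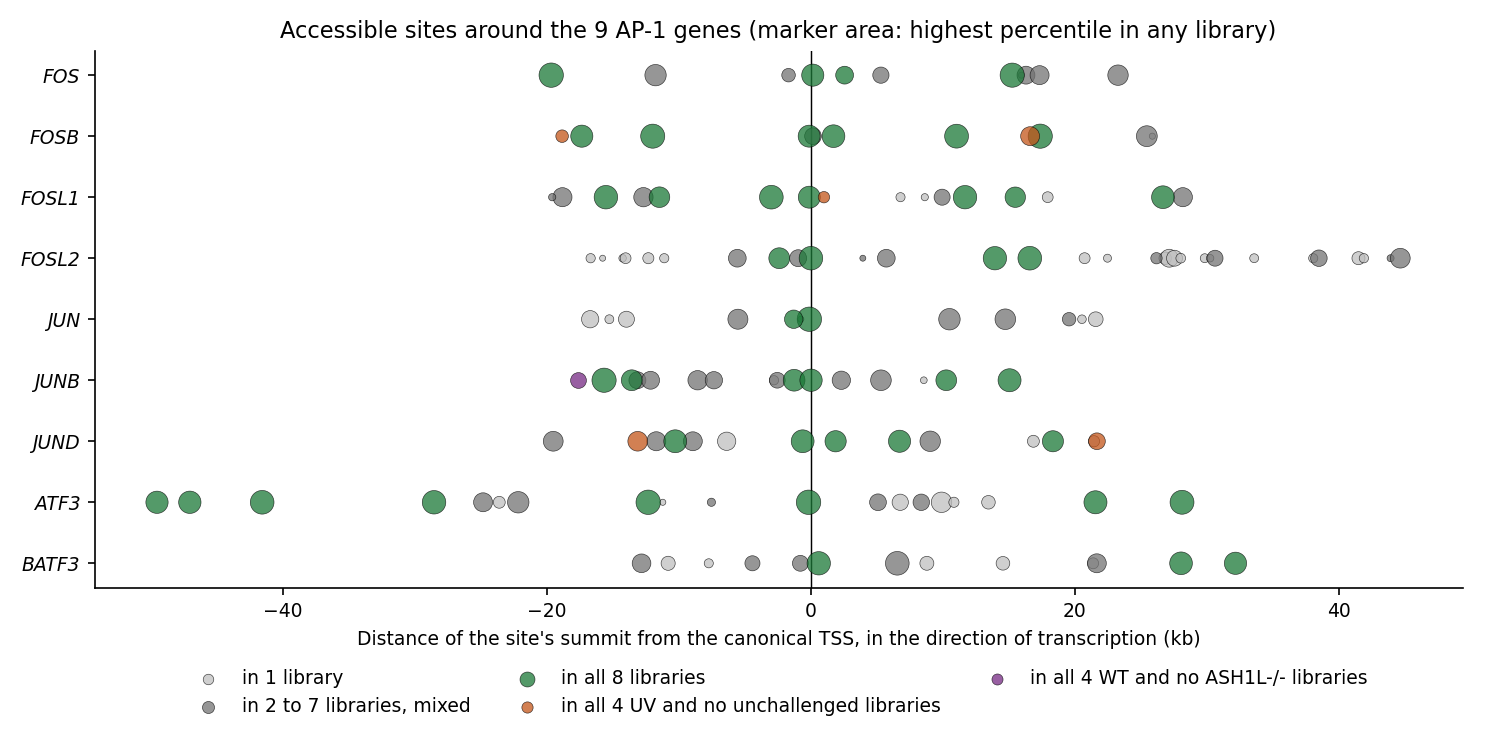
Accessible sites in the 9 windows by distance of the summit from the canonical TSS (x axis, kb, positive in the direction of transcription). Colour gives the libraries that hold the site and marker area the highest percentile in any of them; the 45 sites in all 8 lists recur away from the start in 8 windows, JUN being the exception.

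At FOS, 2 flanking sites outranked the promoter in every library. The site at -19683 bp (chr14:75258714-75259705, in an intron of a lncRNA gene) was at 96.7 and 98 in unchallenged WT, 96.2 and 96.4 in irradiated WT, 99.2 and 98.3 in unchallenged ASH1L-/- and 95.6 and 98.2 in irradiated ASH1L-/- cells. The site at +15244 bp (chr14:75293677-75294556) ranged from 92.0 to 97.6. UV minus unchallenged was -1.46 ± 0.847 for the first and -1.96 ± 1.26 for the second (SE, limma over the 60323 sites in all 8 lists, adjusted p of 0.302 and 0.351). Leaving out 1 library moved them between -2.11 and -0.806 and between -3.13 and -0.794.

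Within the FOS gene, a weak site over a coding exon at +2546 bp, near an alternative start, had higher values after UV. It ranked at 14.4 and 21.9 in unchallenged WT, 41.1 and 42.0 in irradiated WT, 21.7 and 10.7 in unchallenged ASH1L-/- and 28.1 and 50.3 in irradiated ASH1L-/- cells. Every UV value exceeded every unchallenged value, with a difference of 23.2 ± 12.5 that did not pass the test (SE, limma, adjusted p = 0.267).

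For the other FOS family genes the strongest flanking sites were less uniform. At FOSB the site at +17367 bp, in an untranslated part of the neighbouring gene RTN2, ranked from 96.4 to 97.8 without UV and from 89.4 to 94.5 post UV, and so did not overlap between the conditions (-4.56 ± 1.2, SE, limma, adjusted p = 0.0581). The FOSL1 site at -3005 bp ranked from 90.4 to 93.4 without and from 79.8 to 84.8 with UV (-8.51 ± 2.48, adjusted p = 0.0737). The FOSL1 site at -15539 bp, with 2 TRE matches, ranked from 77.0 to 91.9.

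FOSL2 had 2 intronic sites with different courses. The stronger one at +16575 bp, which holds a TRE, was at 83 and 84.7 in unchallenged WT, 74.0 and 71.8 in irradiated WT, 93.3 and 93.1 in unchallenged ASH1L-/- and 82.2 and 84.5 in irradiated ASH1L-/- cells. The other, at +13933 bp, was at 46.0 and 71.9 in unchallenged WT, 90.5 and 79.9 in irradiated WT, 82.3 and 65.5 in unchallenged ASH1L-/- and 84.6 and 81.0 in irradiated ASH1L-/- cells. Within each genotype the first was lower after UV in both libraries. UV minus unchallenged was -10.4 ± 3.29 for the first and 17.6 ± 6.88 for the second (SE, limma, adjusted p of 0.0912 and 0.146), and the second passed when ranked by -log10 p-value (adjusted p = 0.0132). With 1 library left out the second was as low as 11.1.

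In the JUN family, the JUND site at -10287 bp ranked at 85.7 and 73.9 in unchallenged WT, 59.9 and 64.1 in irradiated WT, 86.8 and 82.2 in unchallenged ASH1L-/- and 81.6 and 81.3 in irradiated ASH1L-/- cells. WT cells post UV had the lowest values, and the UV difference was -10.4 ± 4.80 (SE, limma, adjusted p = 0.201). JUNB had no site in all 8 lists outside promoters, since those at -15679, -13580, +10247 and +15042 bp all overlap promoters of neighbours such as HOOK2, PRDX2 and RNASEH2A.

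Beside the strong JUN promoter region lay a weaker one at -1312 bp, in an exon of the neighbouring lncRNA gene LINC01135. It ranked at 54.0 and 52.8 in unchallenged WT, 40.2 and 28.3 in irradiated WT, 10.6 and 15.6 in unchallenged ASH1L-/- and 16.3 and 6.56 in irradiated ASH1L-/- cells. It was the one site in all 8 lists, out of 45 in these windows, at which the genotypes did not overlap, with all ASH1L-/- values lower, as at 1.5% of all sites. Knockout minus WT was -31.5 ± 12.2 (SE, limma, adjusted p = 0.474). No site had all ASH1L-/- values above all WT values, against 2.57% of all sites, and 0 of 45 member sites and 0 of 60323 sites (0%) were called for genotype. At an unadjusted p of 0.05 there were 6 of 45 and 5590 of 60323 (9.27%).

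ATF3 and BATF3 lie next to each other on chromosome 1, and their windows held 11 sites in all 8 lists. The ATF3 intron carried the strongest of them at -12335 bp, which ranked at 97.2 and 97.1 in unchallenged WT, 98.1 and 95.4 in irradiated WT, 99.4 and 98.2 in unchallenged ASH1L-/- and 98.1 and 97.6 in irradiated ASH1L-/- cells. The UV and unchallenged libraries overlapped (-0.646 ± 0.823, SE, limma, adjusted p = 0.654), and the sign turned, to 0.0434, without the library that stood apart. Downstream of the gene, the site at +21551 bp ranked from 69.6 to 81.6 without UV and from 83.7 to 88.0 post UV, with no overlap (9.93 ± 4.24, adjusted p = 0.173). At BATF3 the highest ranked flanking site, at +28035 bp and with a TRE, ranged from 63.5 to 85.2 with overlapping groups.

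One site in the 9 windows passed the test for UV. It lies at -47062 bp from the canonical ATF3 start (chr1:212561377-212561990), upstream of the whole gene and of the alternative first exon that begins at 212565334. Its percentiles were 79.6 and 67.5 in unchallenged WT, 79.7 and 76.8 in irradiated WT, 16.7 and 16.9 in unchallenged ASH1L-/- and 68.2 and 82.4 in irradiated ASH1L-/- cells. Both unchallenged ASH1L-/- libraries were low, and the other 6 libraries lay between 67.5 and 82.4. The pileup of reads at the summit, recovered from the deposited values, was 30 and 20, 51 and 102, 18 and 8, and 32 and 49 in the same order of groups. These counts are not adjusted for depth. The mean pileup over the genome was 2.10 and 1.74, 2.53 and 2.67, 5.87 and 1.39, and 2.45 and 2.81 in that order.

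UV minus unchallenged at this site was 31.6 ± 7.11 (SE, limma, adjusted p = 0.0397, n = 4 and 4), with 58.5 ± 10.0 in ASH1L-/- cells (adjusted p = 0.114) and 4.70 ± 10.0 in WT cells (adjusted p = 0.840). The UV and unchallenged libraries overlapped. The difference between the genotypes in the UV change was 53.8 ± 14.2 (SE, limma, adjusted p = 0.9999), and knockout minus WT was -29.9 ± 7.11 (adjusted p = 0.294). The call was lost without any one library other than replicate 1 of the unchallenged ASH1L-/- cells (adjusted p from 0.0325 to 0.143), although the difference stayed between 28.0 and 35.2.

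**Figure D4:**
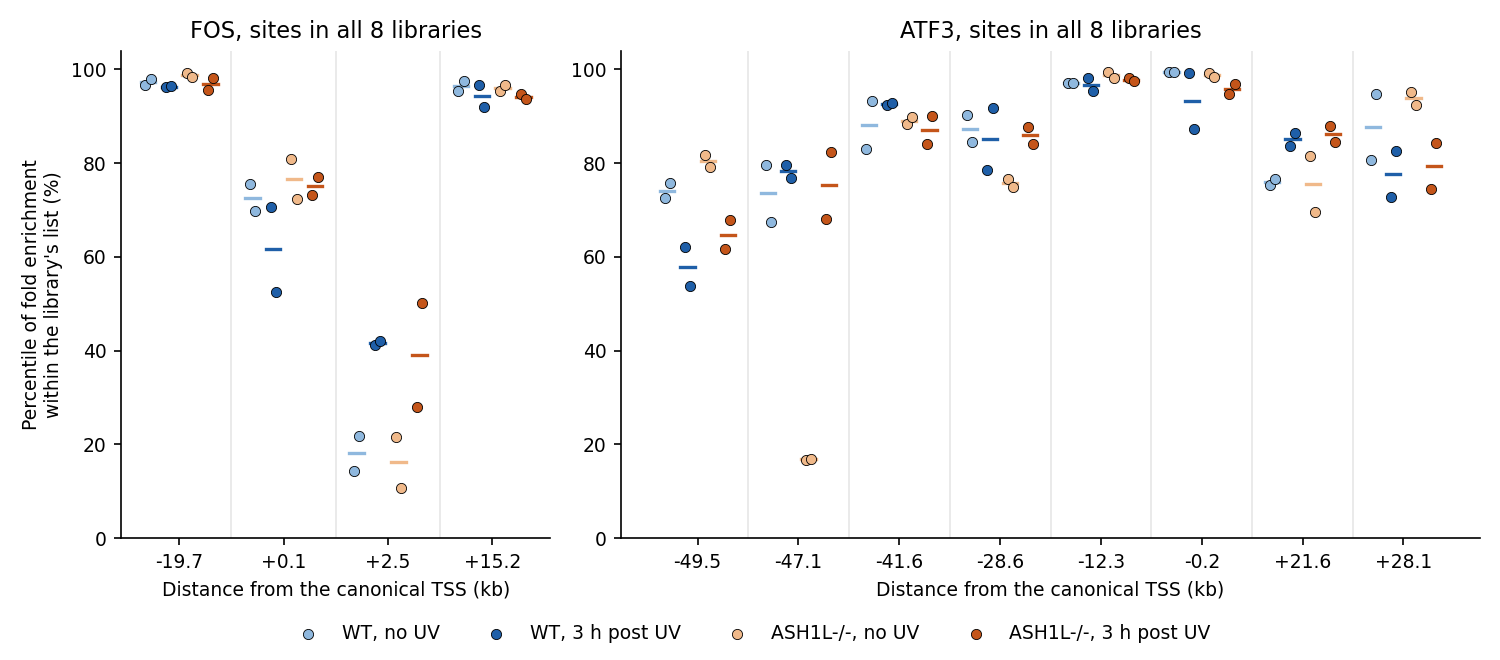
Percentile of every site found in all 8 lists (y axis, percent) in the FOS and ATF3 windows, placed by distance from the canonical TSS. Points are libraries and short lines are means of 2; the 2 unchallenged ASH1L-/- points at -47062 bp of ATF3, 16.7 and 16.9, lie under all other points of that site.

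Called sites were thus 1 of 45 higher, beside 2.04% of all 60323 sites, and 0 of 45 lower, beside 2.88%. At an unadjusted p of 0.05 or below there were 20 of 45, beside 26% of all sites. Without replicate 1 of the irradiated WT cells, 6 of 45 were called, all lower, beside 5.82% of all sites called lower in that fit, among them the promoter regions of ATF3, JUN and FOSL2. All UV libraries were below all unchallenged ones at 14 of 45 sites (31.1%), a pattern held by 12.3% of all sites, and above at 2 of 45 (4.44%), held by 5.98%. Besides the 6 promoter regions of FOSB, FOSL1, FOSL2 and JUNB and the FOSB and FOSL1 sites at +17367 and -3005 bp, the lower ones lay at promoters of neighbours (ERCC1 at -17366 and +11028 bp of FOSB, FIBP at +11669 bp of FOSL1, HOOK2 at -15679 and RNASEH2A at +15042 bp of JUNB) and at -49550 bp of ATF3. The HOOK2 promoter, for instance, ranked from 96.3 to 97.9 without UV and from 78.8 to 92.9 with it (-8.49 ± 2.53, SE, limma, adjusted p = 0.0789), a difference that ran from -11.8 to -5.16 when 1 library was left out. The ERCC1 promoter at +11028 bp of FOSB came nearest to a call in the lower direction, at 91.9 to 94.8 without and 83.5 to 87.3 with UV (-8.54 ± 2.13, SE, limma, adjusted p = 0.05003).

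Some sites were present only after UV. A region in all 4 UV lists and in no unchallenged list was found at 5 of 143 sites (3.50%), compared with 0.686% of all sites. They lay at -18857 and +16601 bp of FOSB, at +979 bp of FOSL1 and at +21663 and -13131 bp of JUND. Most ranked low, from 1.57 to 21.9 at the first and from 8.80 to 17.0 at FOSL1.

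The strongest of them was the JUND site at -13131 bp (chr19:18294550-18295021), at 62.4 and 50.4 in irradiated WT and 37.5 and 57.5 in irradiated ASH1L-/- cells. A TRE stands 13 bases from its summit. The FOSB site at +16601 bp (chr19:45484267-45484740) ranked at 11.8 and 22.8 in WT and 39.3 and 57.3 in ASH1L-/- cells. With the same number of regions kept in each list, 4 of 123 sites showed the pattern, beside 0.879% of all sites. No site had the reverse pattern, which 0.0967% of all sites had. The depth of the libraries also differed between the conditions, and its part in these patterns was not tested.

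A TRE lay within 300 bases around the summit at 3 of the 5 sites found only after UV, and at 46.2% of the 3758 sites with that pattern in the genome, against 32.4% of the 60323 sites in all 8 lists and 11.3% of the 487723 sites not in all 8 lists. In the AP-1 windows 12 of 45 sites in all 8 lists had one (26.7%), among them 8 of 21 outside promoters (38.1%). The sets were not matched for promoters, and a TRE stood in 4.95% of RefSeq promoters. No share was computed for all sites outside promoters, so the part of location was not tested. A CRE stood at 1 of 45, the ATF3 site at -49550 bp, and at 0.879% of all sites in all 8 lists.

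By genotype, 0 of 143 sites were present in all ASH1L-/- and no WT libraries (0.186% of all sites) and 1 in all WT and no ASH1L-/- libraries (0.0768%). This was the site at -17676 bp of JUNB (chr19:12773605-12774021), in an intron of HOOK2 near one of its starts, at 1.74 and 0.69 in unchallenged and 19.4 and 38.2 in irradiated WT cells.

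The bases covered by regions in a window describe breadth rather than rank. For JUNB they were 4436 and 3781 in unchallenged WT, 5322 and 7783 in irradiated WT, 4881 and 3832 in unchallenged ASH1L-/- and 6196 and 5790 in irradiated ASH1L-/- cells, so that every UV library covered more. For ATF3 they ranged from 5026 to 6129 without and from 6645 to 7398 with UV. JUN covered less after UV on average, from 1876 to 2706 bases before and from 1475 to 2205 after, with overlapping groups.

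On the log2 scale UV minus unchallenged was 0.56 ± 0.16 for JUNB (SE, limma over 18618 windows, adjusted p = 0.148), 0.37 for FOSL2, 0.36 for ATF3, 0.30 for JUND, 0.28 for BATF3, 0.27 for FOSL1, 0.26 for FOSB, 0.07 for FOS and -0.33 ± 0.22 for JUN (adjusted p = 0.430). The median over all windows was 0.20, so that JUNB stood at percentile 91.0 and JUN at 3.12. None of the 9 was called by limma, 3 of 9 had an unadjusted p of 0.05 or below, beside 18.2% of all windows, and 0.0215% of all windows were called. JUNB alone passed without replicate 1 of the unchallenged ASH1L-/- cells (adjusted p = 0.0380) and with the same number of regions kept in each list (0.72 ± 0.13, adjusted p = 0.0209), where 6.84% and 9.01% of all windows were called higher. With 1 library left out the difference ran from 0.42 to 0.70 for JUNB and from -0.47 to -0.18 for JUN. In 6 of 9 (all but FOS, JUN and BATF3) every UV library covered more than every unchallenged one, which held for 11.2% of all windows. The greater width of regions after UV moved with these values. So did depth, which was greater in the UV libraries than in the unchallenged ones other than replicate 1 of the ASH1L-/- cells. The part of either was not tested.

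**Figure D5:**
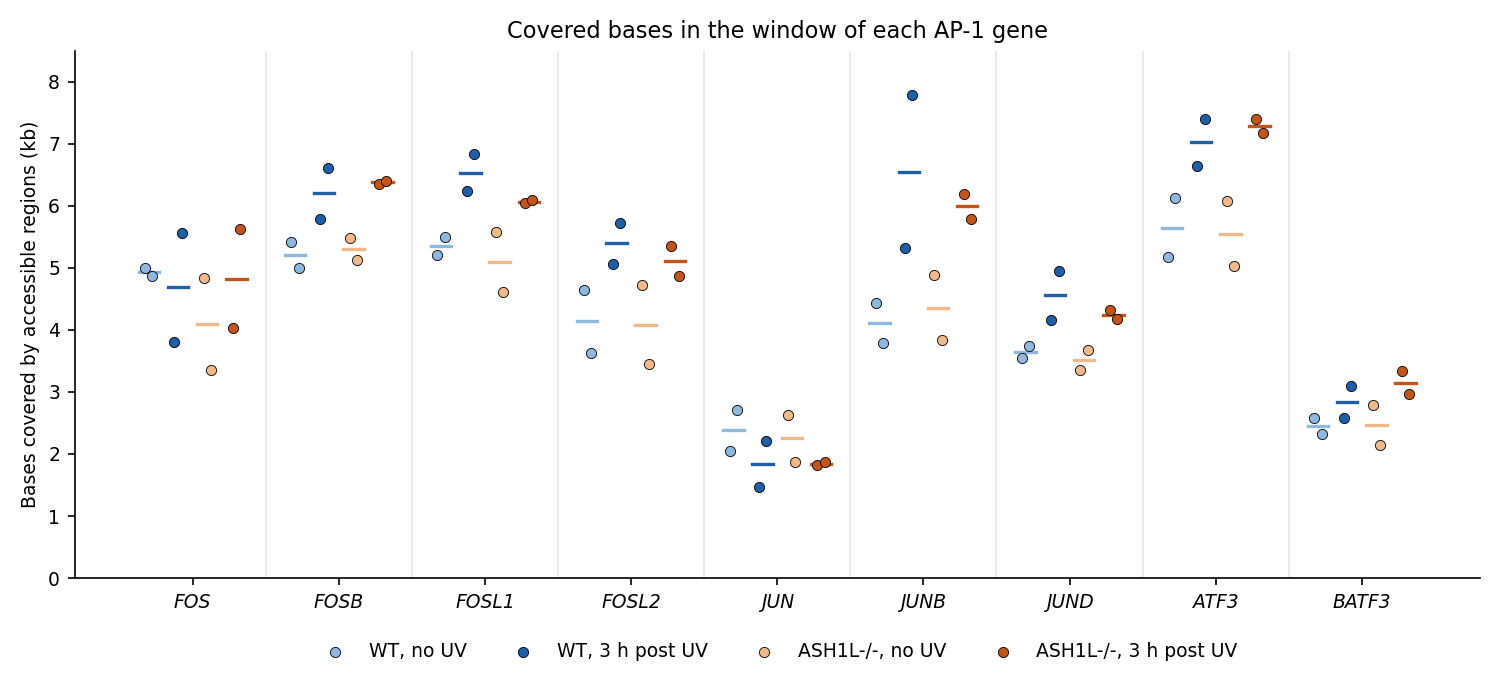
Bases covered by accessible regions (y axis, kb) in the gene span and 20 kb on each side, per library. Points are libraries and short lines means of 2; after UV, JUNB lies between 5322 and 7783 bases against 3781 to 4881 before, and JUN between 1475 and 2205 against 1876 to 2706.

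Genes that act on AP-1, dimerise with its members or are its textbook targets were examined as 3 lists. Of 14 kinases and factors such as JNK, p38, SRF and the ELK proteins, 12 had a promoter region in all 8 lists, with a median UV difference of -6.03 points, 3 not overlapping downward and 0 upward, beside 20.1% and 1.66% of all promoters, which hold for the other lists too. Of 12 other bZIP partners 11 had one, with a median of -4.57, 4 not overlapping downward and 1 upward. Of 12 AP-1 targets 11 had one, with a median of -2.34, 3 downward and 3 upward. In the 3 lists 0 promoters were called for UV or genotype.

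The downward targets, named like the others of these lists after their values were seen, were CCND1, which encodes cyclin D1 (-15.3 ± 4.58), the cytokine gene IL11 (-10.6 ± 4.66) and PLAUR, the urokinase receptor gene (-7.11 ± 3.14), with adjusted p-values of 0.103 to 0.173 (SE, limma). The upward targets were CD44, a hyaluronan receptor, and the matrix metalloproteinases MMP9 and MMP3. The CD44 promoter ranked at 89.7 and 69.5 in unchallenged WT, 99.4 and 99.8 in irradiated WT, 80.9 and 64.2 in unchallenged ASH1L-/- and 99.2 and 98.6 in irradiated ASH1L-/- cells, with a difference of 23.2 ± 4.91 (SE, limma, adjusted p = 0.0794). In all 4 UV libraries it was at 98.6 or above. MMP9 ranked from 9.93 to 73.1 without UV and from 77.9 to 84.1 with it. MMP9 differed by 35.2 ± 12.1 (adjusted p = 0.120) and MMP3 by 18.2 ± 6.53 (adjusted p = 0.127), and among the partners NFE2L2, coding for the oxidative stress factor NRF2, by 5.06 ± 1.09 (adjusted p = 0.0794).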

How the data were processed

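ATAC-seq was carried out with the Omni-ATAC protocol on 8 libraries, and the deposited files are MACS2 narrowPeak lists called on each library alone, with no pooling and no normalisation between libraries. Per the authors' methods and processing notes, reads were trimmed (cutadapt 1.9.1), aligned to hg38 (Bowtie2 2.4.5), filtered (SAMtools 1.7, bedtools 2.29.2, Picard) and used for peak calling (MACS2 2.2.7.1). The deposited values are the fold enrichment (a ratio) at the summit over local background, -log10 p-values, -log10 q-values and an integer score, which was not used. Read totals were not given in these files, so a relative depth, the mean pileup, was recovered from pairs of fold enrichment and -log10 p-value.

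Records with the same interval were joined into regions, regions of all libraries were merged into union sites, and fold enrichment was ranked within each list as a percentile. A gene's promoter value was the highest percentile of the regions within 1 kb of any of its GENCODE 44 starts. Promoters and sites present in all 8 lists, and log2 covered bases of gene windows, were fitted across all features with limma 3.58.1 (R 4.3.3) with the 4 groups as terms and Benjamini-Hochberg adjustment at 0.05. The UV effect was averaged over genotypes, and the genotype effect over UV. Tables were made with Python 3.11.15, numpy 2.4.6 and pandas 2.3.3, and the promoter fit was tried on simulated percentiles. Their noise was independent between promoters and libraries, so the trial does not show how the fit handles shifts shared across a library. Replicates are labelled as biological, and p-values measure the spread between these libraries. Named by rule were the 9 genes, the flanking site of each window with the highest mean percentile in all 8 lists, sites that were called or whose groups did not overlap, and the 5 genes most alike in profile. Sites found after UV alone, the FOSL1 site with 2 TRE matches, FOSL2 +13933 bp, FOS +15244 bp and genes of 3 related lists were named after their values were seen. The members and lists were chosen with earlier results of these data known. Promoter sequences are from RefSeq (GRCh38.p14), where 8 entries matched and 0 differed from the hg38 genome. Groups of 2 libraries allow little precision, and lists hold no regions under the calling threshold, so absence from a list is not absence of accessibility.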

Additional observations from a re-analysis of the deposited data

How the results depend on the processing

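Of the AP-1 promoters, 0 of 9 were called for UV, 4 with a normal score in place of the percentile (FOSL2, FOSB, ATF3 and JUNB) and 0 to 6 when 1 library was left out. For genotype and for the interaction the counts were 0 of 9 in every setting that kept all 8 libraries. Without replicate 1 of the irradiated WT cells this did not hold for ATF3 and JUN, as given above. A fit with 1 library left out has a group of 1, whose spread it cannot measure, so counts of calls in such fits show only how the calls move. Over all 13492 promoters the UV calls of 0 higher and 0 lower became 217 and 1884 with the normal score, 221 and 417 with centred log2 fold enrichment, 210 and 81 among promoter regions, 41 and 102 by -log10 p-value, 167 and 4066 without replicate 1 of WT post UV and 27 and 335 without replicate 2. Over all sites, 1230 higher and 1739 lower became 1289 and 915 with regions at a q-value of 0.05 or below, 1819 and 2769 by -log10 p-value, and 0 and 0 without either library of ASH1L-/- cells post UV or by the exact permutation test, which had 11034 sites at an unadjusted p of 0.05 or below and a smallest adjusted p of 0.156, so that it could hardly make a call.

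AP-1 sites called for UV, 1 of 45, were 0 in the exact permutation test, 5 by -log10 p-value and 0 to 6 when 1 library was left out. With a replicate block the count was 0, with an adjusted p of 0.120 at -47062 bp of ATF3. The labels do not say whether libraries with equal replicate numbers share a culture or day, so whether they are paired is not known. Deviations of same-numbered libraries from their group means correlated little (-0.0662 to 0.115). The numbers were therefore not used to pair, and the block fits were not used further. AP-1 windows called were 0, 1 with lists cut to equal length (JUNB) and 0 to 1 when 1 library was left out. Sites present after UV alone were 5, 8 when a region had to cover 0.5 or more of the site, a setting added after seeing the data, and 5 to 7 when 1 library was left out. Sites present in 1 genotype alone were 1, 0 at a q-value of 0.05 or below, 0 with lists of equal length and 1 to 2 when 1 library was left out.

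For UV, the sign turned among promoter regions for FOS (1.31), JUND (3.01) and BATF3 (3.89), with centred fold enrichment for JUND (0.042) and BATF3 (0.048), and for BATF3 when 1 library was left out (-6.39 to 1.05). For genotype it turned for FOSB at the canonical start (-3.32), JUND with centred fold enrichment (-0.026), BATF3 by -log10 p-value (-0.349) and centred (-0.0079), and ATF3 by -log10 p-value (-0.196), among promoter regions (-0.820), centred (-0.095), with the normal score (-0.156) and within 2 kb (-0.457). Leaving out 1 library turned it for FOSL1 (-1.65 to 8.45), FOSL2 (-1.81 to 8.94), ATF3 (-2.07 to 3.98), BATF3 (-1.73 to 5.70) and, for covered bases after UV, FOS (-0.064 to 0.21). The cause was not tested. Of 153 promoter values for UV under alternatives 137 kept their direction and side of the threshold, as did 137 of 153 for genotype, 103 of 108 for windows and 62 of 72 for sites. Requiring coverage of the shorter of region and site could not change a value, since a site contains its regions.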
